A study of Mus musculus with 9 samples.

Results

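Atf4 and 33 further genes of its amino acid response were followed in mouse sublingual salivary glands, the mucous glands under the tongue. The genes were listed by name as Atf4 and known Atf4 targets in amino acid synthesis, transport, one-carbon metabolism and tRNA charging. All 34 had a gene identifier among the 54532 in the count tables, and all 34 passed the filter on low counts, which left 15348 genes. The list was drawn up with values of these same libraries known, so its counts below are a description of the genes and no evidence about the pathway as such. The libraries came from wild-type (WT) animals in 3 groups of 3: glands taken 7 days after 10 Gy of radiation (day 7), glands taken 14 days after 10 Gy (day 14), and glands with no radiation (control). RNA came from tissue sections of each gland. The labels number the replicates without saying that they are separate animals, so the replicate spread behind each p-value may be technical in part. Because a gland holds many cell types, fewer cells of a type and less RNA per cell cannot be told apart.

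Atf4 is a bZIP transcription factor whose mRNA is translated more when the initiation factor eIF2 is phosphorylated, as happens when amino acids run short or when unfolded protein gathers in the endoplasmic reticulum (ER). It pairs with C/EBP proteins at composite sites and raises genes that make, import and charge amino acids, and genes that feed back on the response. Much of its control is at translation, which mRNA counts do not measure. Secretory cells such as those of a mucous gland make large amounts of protein and carry this response as part of their ER stress machinery.

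The DNA letters of the composite C/EBP-ATF site, TGATGNAAN, where N is any base, were searched on both strands in RefSeq promoter windows of build GRCm38.p6, which run from 250 bases before a gene's start to 50 bases after it. Of the 34 genes 28 had a window. The letters were in 8 of these (28.6%), against 1215 of the 27025 genes with a window in all (4.5%). The part of the window around the letters is shown for 7, from these roles of the list: regulators (Nupr1, Trib3), an effector (Chac1), synthesis (Asns, Pck2), transport (Slc7a11) and tRNA charging (Gars). Of the one-carbon genes of the list, Shmt2 and Mthfd2 had a window without the letters. Aldh1l2 had no window and was not searched. Each line gives the strand of the gene, 5′ to 3′, with the matched letters, or their reverse complement, in capitals.
Chac1, chr2:119351013-119351091, + strand: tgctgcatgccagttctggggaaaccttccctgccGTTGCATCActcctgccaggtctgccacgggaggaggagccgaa
Pck2, chr14:55540127-55540205, + strand: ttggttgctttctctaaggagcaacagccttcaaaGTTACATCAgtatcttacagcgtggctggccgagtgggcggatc
Slc7a11, chr3:50443618-50443714, - strand: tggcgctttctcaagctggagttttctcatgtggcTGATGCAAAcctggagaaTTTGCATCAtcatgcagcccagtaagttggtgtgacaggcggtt
Gars, chr6:55037935-55038000, + strand: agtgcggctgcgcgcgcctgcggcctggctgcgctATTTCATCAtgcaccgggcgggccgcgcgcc
Nupr1, chr7:126625563-126625591, - strand: aaagggccagATTGCATCAgacagggctt
Asns, chr6:7693214-7693242, - strand: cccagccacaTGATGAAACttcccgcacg
Trib3, chr2:152344029-152344057, - strand: ttagctcaggTTTACATCAgccgggcggg
Slc7a11 held the letters on both strands, at bases −66 to −58 and −48 to −40 from its start. Those of Trib3 were after its start, at bases 14 to 22. All 29 bases shown for Nupr1, and all 29 for Asns, lie in annotated exons. A match is a description of the sequence and not a measured binding site.

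The libraries held 15962399 to 19441239 counts each, so that 3 counts corresponded to 0.154 to 0.188 CPM (counts scaled to a common library size, with TMM factors). Markers of mucous acini, among them the mucin gene Muc19 and the demilune genes Dcpp1 to Dcpp3, summed to 236000 to 253000 CPM at day 7, 259000 to 284000 CPM at day 14 and 254000 to 352000 CPM in controls, the highest sum of all marker lists in every library. Markers of granular ducts, a duct type of the neighbouring submandibular gland, summed to 271 to 294 CPM at day 7 and 247 to 338 CPM at day 14, and to 587 CPM in control library 3 against 231 and 240 CPM in the other controls. Skeletal muscle and T and NK cell markers stayed under 8 CPM in every library. Changes also moved with gene length: the log2 change at day 7 and exonic length had a Spearman correlation of 0.423 over the tested genes, which are no independent replicates. The correlation was 0.336 for day 14 against control and −0.283 for day 14 against day 7. A second fit had an offset for length and GC content in every library, and its value is given for calls that it ended or moved by over 1.5 times.

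Within the groups, many members were highest or lowest in the same library. In day 14 library 3, 30 of the 34 genes were at the lowest level of their group, while 32.2% of all tested genes were. In day 7 library 3, 23 of the 34 were at the highest level of their group (34.8% of all tested genes), and in day 7 library 1, 22 were at the lowest (38.8%). In controls 20 were highest in library 3 (38.6%) and 20 lowest in library 1 (36.8%). Results that rest on 1 of these libraries are given with and without it. Day 14 library 3 also had the highest sum of adipocyte markers, 97.1 CPM against 18.6 to 31.2 CPM in the other 8 libraries. The part of this in the results was not tested.

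**Figure D1:**
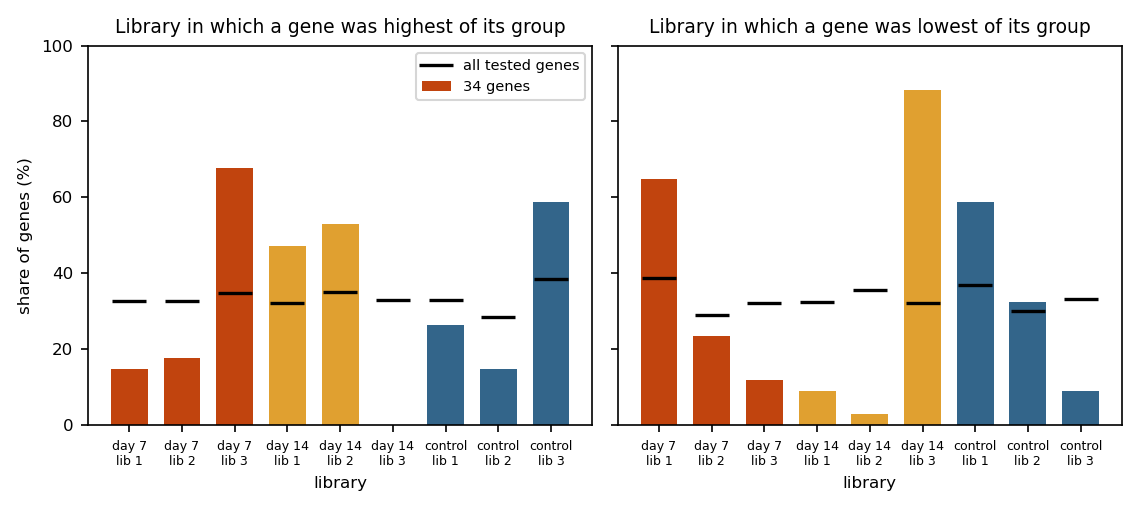
Share of the 34 genes (bars) whose highest (left) or lowest (right) level within a group fell in each library, in percent, with the same share of all tested genes (dashes). The bar for the lowest level stands out in day 14 library 3, where it covers 30 of 34 genes.

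At day 7 the changes of the list went both ways, 18 below 0 and 16 above it: Atf4 itself, Nupr1 and Adm2 fell, and Aldh1l2 and Eprs rose. At day 14 most of the list lay below controls. Of 34 log2 changes 30 were negative, and the largest in size were those of Chac1 (−2.66), Trib3 (−2.21), Ddit4 (−1.89) and Sesn2 (−1.55), of which that of Sesn2 passed the test. Without control library 1 the value of Ddit4 was −0.95. Set against day 7, the day 14 glands had 7 genes that fell: Sesn2 and genes of amino acid synthesis, one-carbon metabolism, transport and tRNA charging. No gene of the list was called higher at day 14 in either comparison.

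By edgeR's quasi-likelihood test on the whole table (Benjamini-Hochberg adjusted p under 0.05 over all tested genes), 2 of 34 rose at day 7 against control, beside 15.8% of all tested genes, and 3 fell, beside 14.8%. Against control, 0 rose at day 14 (1.13% of all tested genes; 1 with an unadjusted p under 0.05, and 0 by DESeq2) and 4 fell, beside 0.632%. Between the irradiated groups 0 rose at day 14 (3.72% of all tested genes; 1 with an unadjusted p under 0.05, and 0 by DESeq2) and 7 fell, beside 2.87%. The list had a median log2 change of −0.03 for day 7 and −0.32 for day 14, both set against control, and of −0.34 for day 14 set against day 7. Over all tested genes the same medians were 0.02, 0.01 and 0.00. The comparisons of day 7 and of day 14 with control share the 3 control libraries.

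Libraries that were all above or all below the other group's were counted as well. In day 14 glands 17 of the 34 genes were lower than controls without overlap, beside 10.7% of all tested genes, and 0 were higher, beside 12.4%. Set against day 7, 16 were lower (13.5% of all tested genes) and Nupr1 was the 1 that was higher (15.9%). In day 7 glands 7 were lower than controls (21.7%) and 2 were higher (22.2%).

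The counts moved with single libraries and with the tool, and so did those over all genes. At day 7, omitting control library 3 gave 7 higher and 3 lower among the 34, beside 2724 higher and 2590 lower of 15758 genes. With day 14 library 3 left out, 0 of the 34 were called at day 14 against control by edgeR (16 with an unadjusted p under 0.05, beside 16.8% of all tested genes). Of 34 changes 28 were negative (median −0.27). Omitting control library 1 also left 0 (19 with an unadjusted p under 0.05, beside 13.4% of all tested genes, and 32 negative). Over all genes 31 were called without day 14 library 3 and 13 without control library 1, against 270 with all libraries. Omitting control library 2 left 2 of the 34, among 15 genes in all, and omitting day 7 library 2 left 1 among 148. Without day 14 library 2 there were 2 among 36, Adm2 of the 4 calls above and Slc3a2. Without control library 3 there were 11, of which 10 were lower and Aldh1l2 was higher, among 1937 of 15758 genes.

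The 7 calls against day 7 came down to 2, Sesn2 and Eprs, without day 7 library 2, day 7 library 3 or day 14 library 3. They came down to 4 without day 14 library 1. Without day 14 library 2 there were 4 calls, 3 of the 7 and Slc3a2. Over all genes these omissions left 330 to 636 calls, against 1011. A fit of the 6 compared libraries alone called Shmt2, Pck2 and Adm2 lower at day 14 than in controls, without Sesn2 and Stc2, and 12 genes lower than at day 7.

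Other members were called by edgeR when 1 library was omitted. Without control library 3, Slc7a11, Slc38a2, Cebpg, Gpt2 and Nars were called higher and Wars lower at day 7, and Atf4, Ddit3, Phgdh, Mthfd2, Pck2, Slc7a5 and Nupr1 lower at day 14. Other omissions added Mthfd2, Cebpb, Stc2, Atf5 and Wars, all lower, at day 7 and Psat1, Pck2, Slc7a5, Mthfd2, Cebpb and Slc3a2, all lower, at day 14 against control. Set against day 7, Ddit3, Gpt2, Aldh1l2, Slc38a2 and Slc3a2 were lower at day 14 under at least 1 omission.

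DESeq2 called more. It had 2 higher and 5 lower at day 7 (16.1% and 16.2% of the genes it tested), 0 higher and 14 lower at day 14 against control (3.7% and 2.64%), and 0 higher and 10 lower between day 14 and day 7 (4.92% and 4.23%). Its 14 included the 4 called by edgeR. With the length and GC offset edgeR called 1 higher and 2 lower at day 7 (8.73% and 12.3% of all tested genes), 0 higher and 1 lower at day 14 against control (0.469% and 0.456%), and 0 higher and 6 lower between day 14 and day 7 (3.51% and 2.63%).

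**Figure D2:**
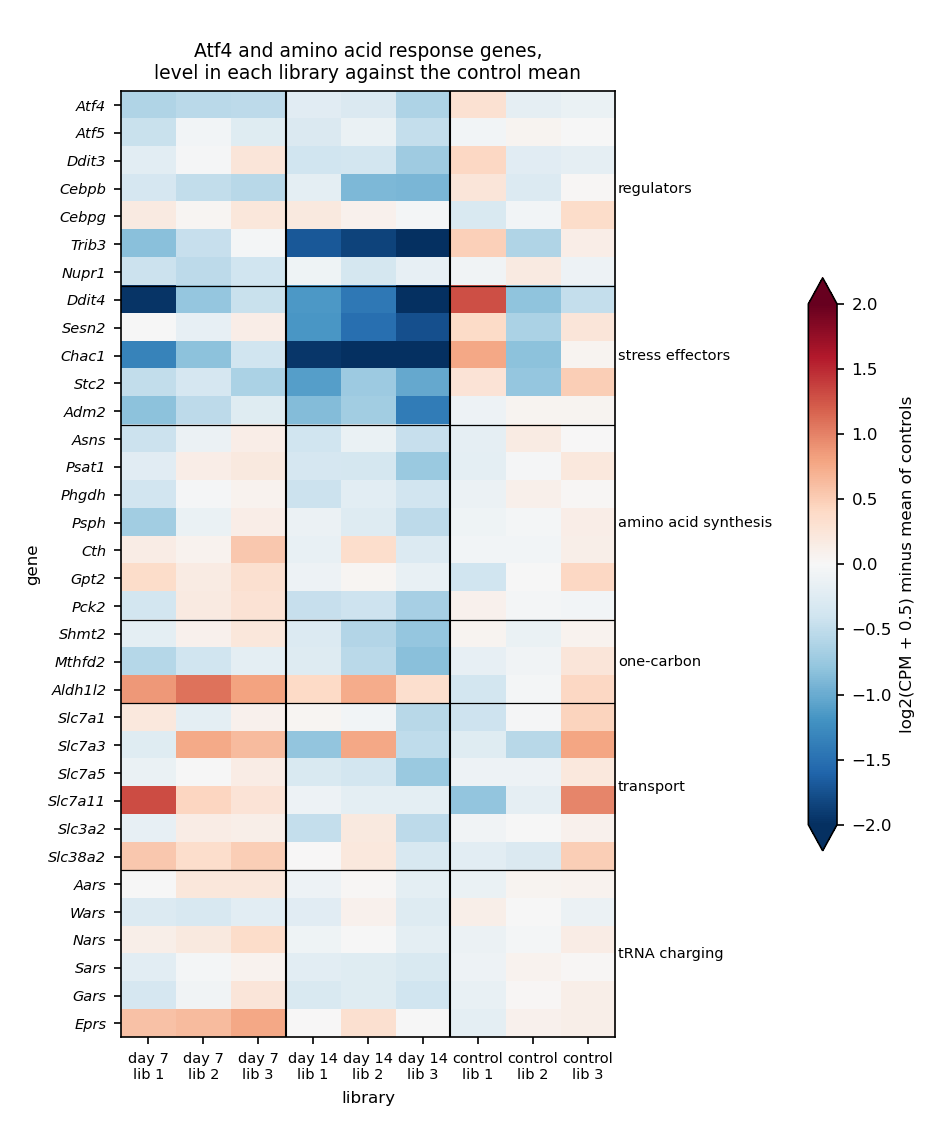
Level of each of the 34 genes (rows, grouped by role) in each of the 9 libraries (columns), as log2(CPM + 0.5) minus the mean of the 3 controls; red is above and blue below that mean, and colours end at 2 in either direction. Trib3, Chac1 and Sesn2 are blue in all 3 day 14 libraries, and Aldh1l2 and Eprs are red in all 3 day 7 libraries.

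**Figure D3:**
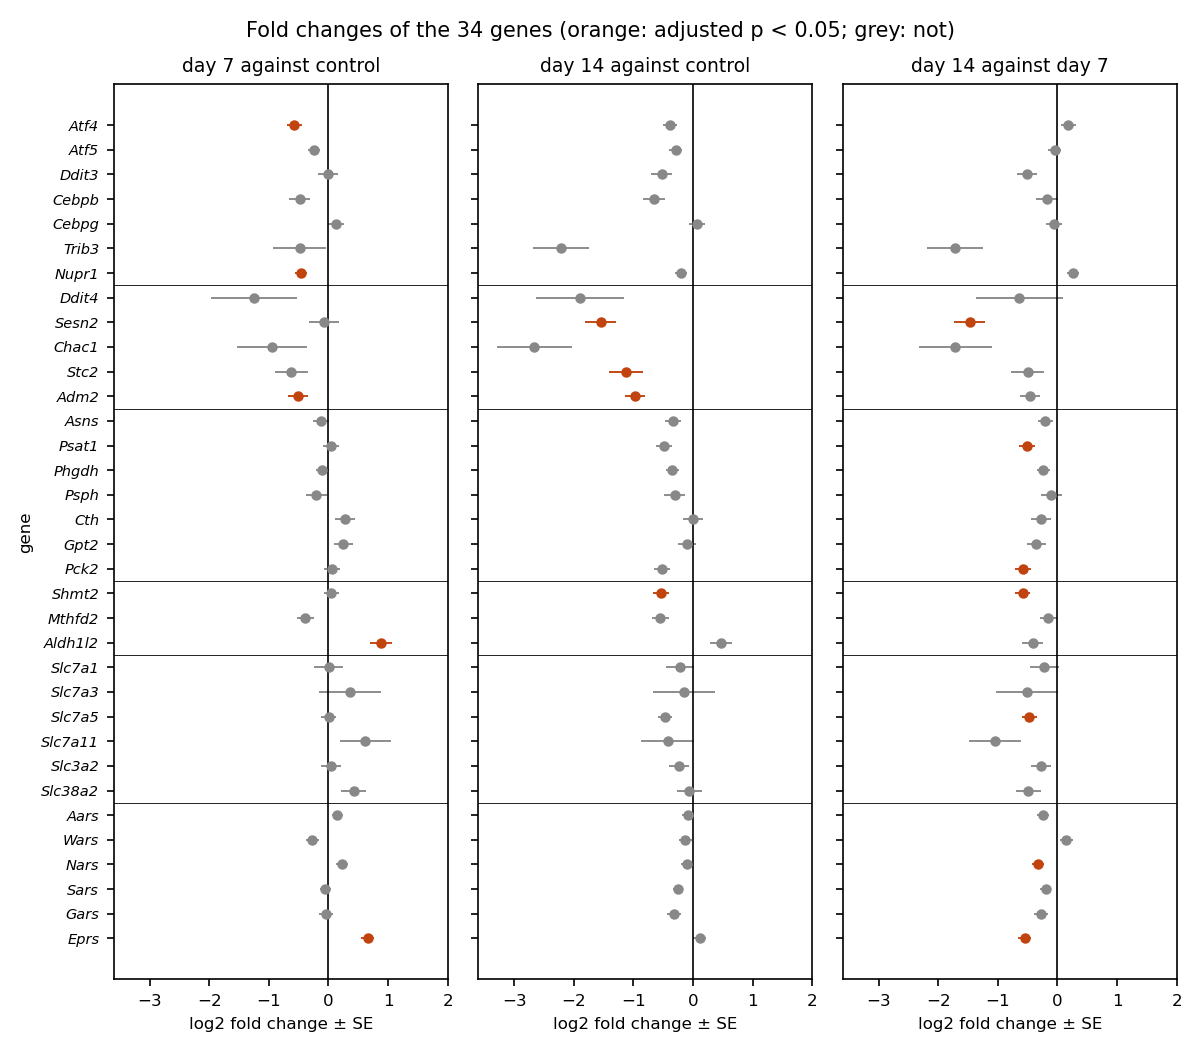
Log2 fold change of each gene (points) with its standard error (bars) in the 3 comparisons, from edgeR, with genes past the threshold in orange. At day 14 against control 30 of the 34 points lie left of 0, against 18 of 34 at day 7.

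Of the 7 regulators, Atf4 and Nupr1 fell at day 7 and 0 passed at day 14 against control or day 7 by edgeR, with 5 and 3 at an unadjusted p under 0.05 and 4 and 2 called by DESeq2. Atf4 (ENSMUSG00000042406, chromosome 15, 80255184 to 80257541) had 289, 302 and 304 CPM at day 7, 373, 358 and 286 CPM at day 14, and 543, 387 and 402 CPM in controls. All 3 day 7 libraries were below all 3 controls, and so were all 3 day 14 libraries. Atf4 fell at day 7 (log2 −0.57, SE 0.122, adjusted p = 0.0021). This call held in every alternative tried, with the smallest change under the length and GC offset (−0.31, adjusted p = 0.0452). At day 14 its change of −0.39 against control did not pass (SE 0.122, adjusted p = 0.0877). It passed when control library 3 was omitted (−0.49, adjusted p = 0.0284), with no filter on low counts and by DESeq2.

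Nupr1, a small stress-induced chromatin protein, was by far the most abundant member. It had 4000, 3740 and 4060 CPM at day 7, 5070, 4200 and 4800 CPM at day 14, and 5090, 6070 and 5010 CPM in controls. The day 7 libraries lay below both other groups, which overlapped. Nupr1 fell at day 7 (log2 −0.45, SE 0.1, adjusted p = 0.00225; −0.28 under the length and GC offset, adjusted p = 0.0386), in every alternative tried. At day 14 its level did not pass against day 7 (0.25, SE 0.1, adjusted p = 0.132).

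Atf5, a bZIP factor close to Atf4 that is also controlled at translation, had 158, 206 and 181 CPM at day 7, 176, 197 and 155 CPM at day 14, and 208, 223 and 214 CPM in controls. Both irradiated groups lay below controls, by log2 −0.24 (adjusted p = 0.0861) and −0.29 (adjusted p = 0.122), and neither passed. Atf5 shares up to 164 exonic bases with Nup62 and Il4i1 on the other strand, and reads may be mixed if the counting did not use strand. Nup62 fell at day 7 (log2 −0.38, edgeR adjusted p = 0.0272). Ddit3, the factor CHOP that is raised in lasting ER stress, had 29.2, 33.1 and 40.0 CPM at day 7, 25.5, 25.9 and 20.4 CPM at day 14, and 45.2, 28.6 and 29.6 CPM in controls. The day 14 libraries were the 3 lowest of the 9, at log2 −0.53 against control (SE 0.172, adjusted p = 0.0988) and −0.51 against day 7 (SE 0.171, adjusted p = 0.0836). These values passed by DESeq2 and by edgeR with no filter on low counts (adjusted p = 0.00339 and 0.00373). They did not pass by edgeR with the filter and all libraries. The change against control was −0.30 without control library 1 and −0.66 without control library 3 (adjusted p = 0.0317).

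Trib3, a pseudokinase that holds back Atf4 and CHOP activity, was taken for its values after they were seen, as were Chac1 and Ddit4. Trib3 had 30.9, 40.2 and 54.2 CPM at day 7, 16.8, 15.1 and 6.07 CPM at day 14, and 77.6, 36.4 and 61.0 CPM in controls. The highest day 14 library was below the lowest of the other 6, and the log2 changes were −2.21 against control (SE 0.472, adjusted p = 0.0732) and −1.72 against day 7 (SE 0.469, adjusted p = 0.0888). DESeq2 called both and edgeR neither. The C/EBP factors Cebpb and Cebpg, which pair with Atf4, did not pass by edgeR in any of the 3 comparisons (log2 −0.66 to −0.17 for Cebpb and −0.06 to 0.12 for Cebpg). Cebpb was called lower at both times under some of the omissions above. DESeq2 called it lower in both irradiated groups than in controls. So did edgeR with no filter on low counts and with the replicate number as a block. Cebpb shares 312 exonic bases with Tmem189 on the other strand, which fell at day 7 (log2 −0.70, adjusted p = 0.000389); the counting is not stated to use strand, so that reads of the pair may be mixed.

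Of the 5 stress effectors, Adm2 fell at both times, Sesn2 and Stc2 fell at day 14, and Chac1 and Ddit4 did not pass. Sesn2, sestrin 2, a leucine sensor that holds back mTORC1 (ENSMUSG00000028893, chromosome 4, 132492032 to 132510501), had 51.2, 45.5 and 56.2 CPM at day 7, 22.5, 17.7 and 14.8 CPM at day 14, and 67.0, 32.9 and 61.0 CPM in controls. Its day 14 libraries were below the 6 others, while day 7 and controls overlapped. Sesn2 fell at day 14 against control (log2 −1.55, SE 0.261, adjusted p = 0.0335) and against day 7 (log2 −1.47, SE 0.26, adjusted p = 0.0146). The first call was lost when control library 1, day 7 library 1 or 2, or day 14 library 2 or 3 was omitted (log2 −1.83 to −1.37 over the 9 omissions, highest adjusted p = 0.13) and under the length and GC offset (−1.43, adjusted p = 0.0691). The second was lost without day 7 library 1 or day 14 library 2 (highest adjusted p = 0.082).

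Chac1, which degrades glutathione, had 74.7, 107 and 144 CPM at day 7, 48.6, 37.4 and 13.3 CPM at day 14, and 323, 107 and 196 CPM in controls. It had the largest fold difference of the list, log2 −2.66 at day 14 against control (SE 0.627), with day 14 below every other library, and did not pass by edgeR (adjusted p = 0.0865; 0.00144 by DESeq2). Ddit4, the mTORC1 inhibitor REDD1, had 19.8, 45.9 and 57.5 CPM at day 7, 35.3, 28.8 and 15.1 CPM at day 14, and 193, 44.6 and 56.0 CPM in controls. Control library 1 was the highest of the 9 for Ddit4, Chac1, Trib3, Ddit3, Sesn2 and Atf4. Within controls the coefficient of variation was 84.2% for Ddit4 and 52.4% for Chac1, beside a median of 14.7% over all tested genes.

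Adm2, the secreted peptide intermedin (ENSMUSG00000054136, chromosome 15, 89322720 to 89324731), had 22.5, 27.7 and 33.7 CPM at day 7, 21.7, 24.5 and 14.8 CPM at day 14, and 37.1, 41.3 and 41.5 CPM in controls. All 6 irradiated libraries were below the 3 controls. Adm2 fell at day 7 (log2 −0.51, SE 0.167, adjusted p = 0.0274) and at day 14 (−0.97, SE 0.169, adjusted p = 0.0169). The day 7 call was lost when either of control libraries 2 and 3, or of day 7 libraries 1 and 2, was omitted (−0.67 to −0.38, highest adjusted p = 0.129) and under the length and GC offset (−0.13, adjusted p = 0.668). The day 14 call was lost when control library 1, control library 2 or day 14 library 3 was omitted (−1.15 to −0.79, highest adjusted p = 0.0723) and under the offset (−0.75, adjusted p = 0.0768).

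Stc2, the secreted glycoprotein stanniocalcin 2, was among the members at low level, with 5.48, 6.15 and 4.94 CPM at day 7, 3.45, 4.62 and 3.63 CPM at day 14, and 9.70, 4.45 and 11.4 CPM in controls. Control library 2 lay within the range of the day 14 libraries and the other controls lay above it. Stc2 fell at day 14 against control (log2 −1.13, SE 0.281, adjusted p = 0.046). The call was lost when any library other than control library 2 was left out (−1.46 to −0.90, highest adjusted p = 0.179), and it was the one call of the 4 at day 14 that remained under the length and GC offset (−1.14, adjusted p = 0.0445).

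**Figure D4:**
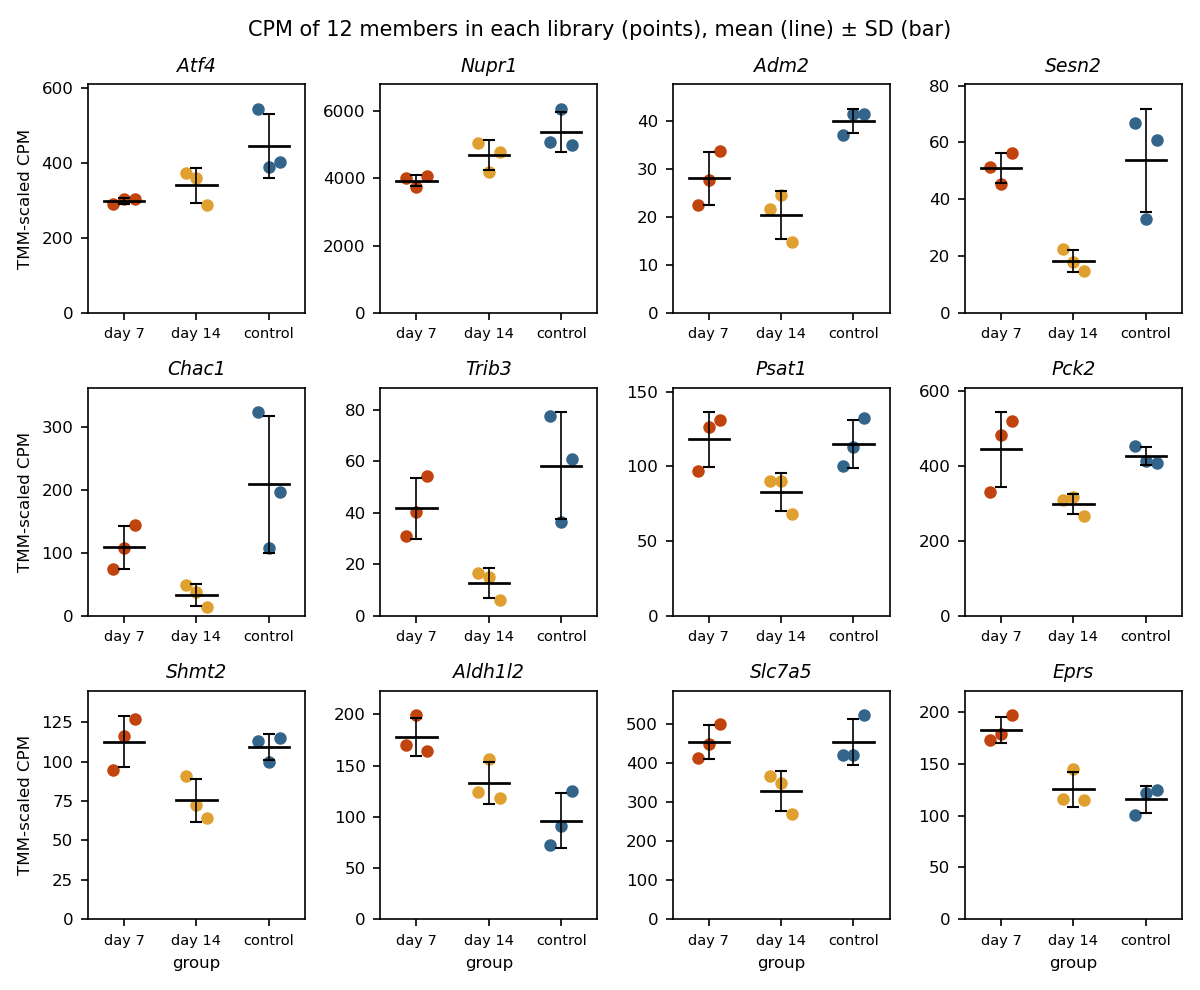
CPM of 12 genes (panels) in each library (points) at day 7, day 14 and in controls, with the group mean (line) and SD (bars, n = 3); every axis starts at 0. The day 14 points lie below all others for Sesn2, Chac1, Trib3, Psat1, Pck2, Shmt2 and Slc7a5, and the day 7 points lie above all others for Aldh1l2 and Eprs.

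Of the 7 enzymes of amino acid synthesis, Psat1 and Pck2 fell at day 14 against day 7. None passed at day 7 by edgeR or DESeq2, where 0 had an unadjusted p under 0.05, and 0 passed at day 14 against control by edgeR, where 4 had an unadjusted p under 0.05 and DESeq2 called 3 lower. Asns, asparagine synthetase, had 291, 363 and 432 CPM at day 7, 299, 359 and 287 CPM at day 14, and 347, 442 and 398 CPM in controls. The 3 groups overlapped, and its changes of −0.13 at day 7 and −0.33 at day 14 against control did not pass (adjusted p = 0.504 and 0.17).

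Psat1, the aminotransferase of serine synthesis (ENSMUSG00000024640, chromosome 19, 15904678 to 15947337), had 97.1, 126 and 131 CPM at day 7, 90.2, 89.9 and 67.8 CPM at day 14, and 100, 113 and 132 CPM in controls. Every day 14 library was below every other. Psat1 fell at day 14 against day 7 (log2 −0.51, SE 0.135, adjusted p = 0.0339) and did not pass against control (−0.48, SE 0.136, adjusted p = 0.0718). The call was lost without day 7 library 2, day 7 library 3 or any 1 of the day 14 libraries (−0.64 to −0.39, highest adjusted p = 0.131). Phgdh, the first enzyme of the same route, and Psph, the last, were also lower in value at day 14 than in every control library, at −0.34 (adjusted p = 0.0889) and −0.31 (adjusted p = 0.339), and did not pass by edgeR.

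Pck2, the mitochondrial phosphoenolpyruvate carboxykinase, had 331, 483 and 519 CPM at day 7, 308, 318 and 267 CPM at day 14, and 453, 414 and 409 CPM in controls. The day 14 libraries were the 3 lowest. Pck2 fell at day 14 against day 7 (log2 −0.58, SE 0.133, adjusted p = 0.0181), and its change against control was −0.51 (SE 0.133, adjusted p = 0.0586). The call was lost under the length and GC offset (−0.47, adjusted p = 0.114) and when day 7 library 2 or 3, or day 14 library 1 or 3, was omitted (−0.75 to −0.45, highest adjusted p = 0.0836). Cth, which makes cysteine from cystathionine, and Gpt2, the mitochondrial alanine aminotransferase, did not pass in any comparison with all libraries and the filter on low counts (log2 −0.36 to 0.27). With no filter edgeR called Gpt2 lower at day 14 against day 7 (−0.35, adjusted p = 0.0167). Without control library 3 Gpt2 was called higher at day 7 (0.47, adjusted p = 0.00333) and lower at day 14 against day 7 (−0.37, adjusted p = 0.0254).

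Of the 3 mitochondrial one-carbon enzymes, Aldh1l2 rose at day 7 and Shmt2 fell at day 14. Aldh1l2, the formyltetrahydrofolate dehydrogenase of mitochondria (ENSMUSG00000020256, chromosome 10, 83487450 to 83534140), had 170, 199 and 164 CPM at day 7, 124, 156 and 118 CPM at day 14, and 72.0, 90.7 and 125 CPM in controls. All 3 day 7 libraries were above all 6 others, and day 14 overlapped with control library 3. Aldh1l2 rose at day 7 (log2 0.89, SE 0.185, adjusted p = 0.00499; 0.66 under the length and GC offset, adjusted p = 0.0154), in every alternative tried. At day 14 it did not pass against control (0.47, SE 0.184, adjusted p = 0.181) or against day 7 (−0.42, SE 0.183, adjusted p = 0.207). Without control library 3 both passed (0.68, adjusted p = 0.00415, and −0.43, adjusted p = 0.0247). It shares 1056 exonic bases with D10Wsu102e on the other strand, which averaged 57.3 CPM at day 7 and 56.2 CPM in controls (log2 0.03, adjusted p = 0.93).

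Shmt2, the mitochondrial serine hydroxymethyltransferase (ENSMUSG00000025403, chromosome 10, 127517123 to 127522444), had 94.9, 116 and 127 CPM at day 7, 90.6, 72.3 and 63.9 CPM at day 14, and 113, 99.8 and 115 CPM in controls. The day 14 libraries were below the 6 others. Shmt2 fell at day 14 against control (log2 −0.54, SE 0.127, adjusted p = 0.0394) and against day 7 (−0.58, SE 0.126, adjusted p = 0.0122). The call against control was lost when control library 1 or 2, day 7 library 2, or day 14 library 2 or 3 was omitted (−0.69 to −0.43, highest adjusted p = 0.162) and under the length and GC offset (−0.41, adjusted p = 0.0758). The call against day 7 was lost when day 7 library 2 or 3, or day 14 library 2 or 3, was omitted (−0.73 to −0.47, highest adjusted p = 0.0587), and under the offset it was −0.65 (adjusted p = 0.0016). Mthfd2, which acts next in the mitochondrial pathway, was below every control library in both irradiated groups. It did not pass by edgeR (−0.39, adjusted p = 0.0504 at day 7, and −0.55, adjusted p = 0.0622 at day 14). It was called at both times by DESeq2 and by edgeR with no filter on low counts (adjusted p = 0.002 and 4.07e-05).

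Of the 6 amino acid transporters, 0 passed at day 7 or day 14 against control by edgeR, with 0 and 1 at an unadjusted p under 0.05. DESeq2 called 0 at day 7 and Slc7a5 at day 14. Slc7a5, the light chain LAT1 of the carrier of large neutral amino acids (ENSMUSG00000040010, chromosome 8, 121881150 to 121907694), had 412, 448 and 500 CPM at day 7, 365, 349 and 269 CPM at day 14, and 419, 419 and 521 CPM in controls. Day 14 lay below both other groups, and Slc7a5 fell against day 7 (log2 −0.47, SE 0.119, adjusted p = 0.0252). The change against control was −0.47 (SE 0.119, adjusted p = 0.0522). The call was lost when day 7 library 2 or 3 or day 14 library 3 was omitted (−0.55 to −0.34, highest adjusted p = 0.108). Its heavy chain Slc3a2 did not pass (−0.23 against control, adjusted p = 0.468, and −0.27 against day 7, adjusted p = 0.396). Without day 14 library 2 it was −0.53 against control (adjusted p = 0.0448) and −0.56 against day 7 (adjusted p = 0.00691).

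The other transporters were Slc38a2, a carrier of small neutral amino acids, Slc7a1 and Slc7a3 for cationic amino acids, and Slc7a11, the cystine carrier xCT. Their log2 changes at day 7 against control were 0.42, 0.00, 0.36 and 0.62, and at day 14 against day 7 they were −0.49, −0.22, −0.51 and −1.04. None of these passed by edgeR with all libraries and the filter on low counts. With no filter edgeR called Slc38a2 higher at day 7 (adjusted p = 0.00502) and lower at day 14 against day 7 (adjusted p = 0.00462). Slc7a11 was then lower at day 14 against day 7 (adjusted p = 0.0301). Slc7a3 and Slc7a11 were near the bottom of the range, at 1.29 to 4.86 CPM and 1.34 to 7.33 CPM over the 9 libraries. With control library 3 left out Slc38a2 (0.69, adjusted p = 0.000284) and Slc7a11 (1.39, adjusted p = 0.0105) were called higher at day 7.

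Of the 6 tRNA synthetases, Eprs rose at day 7, and Eprs and Nars fell at day 14 against day 7. Eprs, which charges glutamate and proline (ENSMUSG00000026615, chromosome 1, 185363044 to 185428360), had 173, 179 and 197 CPM at day 7, 116, 145 and 115 CPM at day 14, and 101, 122 and 125 CPM in controls. The day 7 libraries were the 3 highest, and day 14 overlapped with controls. Eprs rose at day 7 (log2 0.66, SE 0.107, adjusted p = 0.0002) and fell at day 14 against day 7 (−0.55, SE 0.107, adjusted p = 0.0052). It has the longest gene model of the list, with 18102 exonic bases, and the rise at day 7 was not called under the length and GC offset (0.20, adjusted p = 0.217). The fall at day 14 against day 7 was called in every alternative tried (highest adjusted p = 0.0413).

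Nars, for asparagine, had 215, 228 and 257 CPM at day 7, 187, 197 and 173 CPM at day 14, and 183, 194 and 220 CPM in controls. It fell at day 14 against day 7 by 0.33 on the log2 scale (SE 0.0966, adjusted p = 0.0473), a call that was lost without control library 2 or any 1 of the 6 irradiated libraries (highest adjusted p = 0.179). Aars, Wars, Sars and Gars, for alanine, tryptophan, serine and glycine, did not pass in any comparison with all libraries and the filter on low counts, with log2 changes between −0.32 and 0.15. With no filter edgeR called Gars lower at day 14 against control (−0.31, adjusted p = 0.0493).

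**Figure D5:**
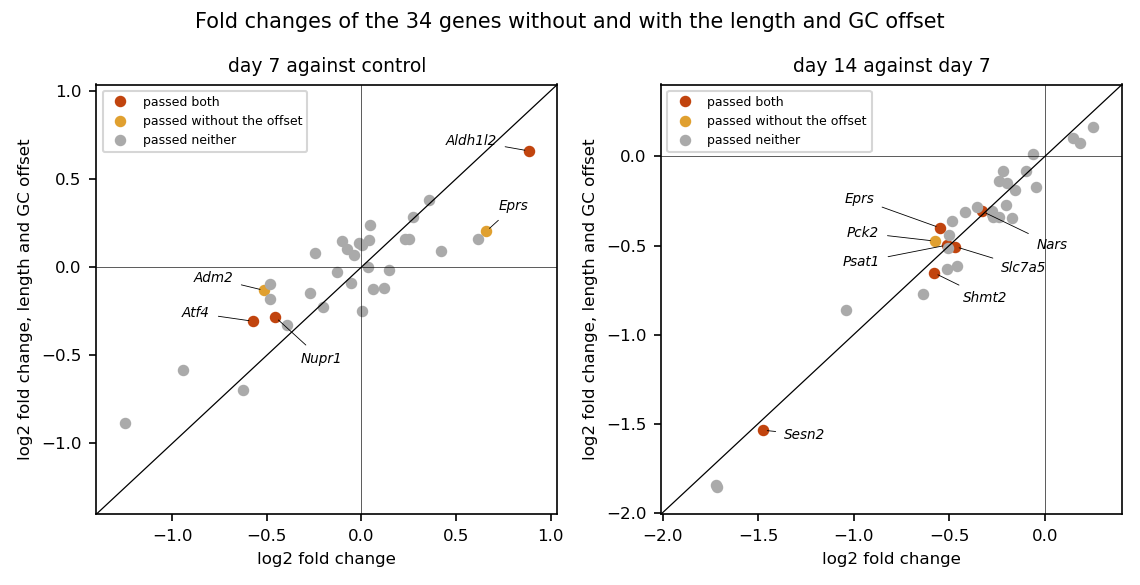
Log2 fold change of each gene without (horizontal axis) and with (vertical axis) the offset for gene length and GC content, at day 7 against control (left) and at day 14 against day 7 (right), with equal values on the diagonal. Eprs drops to 0.20 and Adm2 moves to −0.13 at day 7, while Sesn2, Shmt2, Psat1, Slc7a5, Nars and Eprs pass both ways at day 14 against day 7.

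Genes upstream of Atf4 changed in both directions at day 7. Of 15 kinases, partners and phosphatase subunits of the eIF2 step, 4 rose, 4 fell and 7 did not pass. Over all tested genes 15.8% rose and 14.8% fell at day 7. At day 14 against day 7, 3.72% rose and 2.87% fell. The same shares stand beside the lists that follow. The kinases Eif2ak4 (GCN2, which reads uncharged tRNA; log2 0.55, SE 0.115) and Eif2ak3 (PERK, which reads ER stress; 0.47, SE 0.101) rose, and both held under the length and GC offset (0.35 each). The GCN2 partner Gcn1l1 (0.39, SE 0.086) rose and the eIF2B subunit Eif2b4 (−0.51, SE 0.121) fell, and neither was called with the offset (0.15 and −0.26). Among the calls not named, the rise was also lost with the offset (0.21, edgeR adjusted p = 0.335). So were falls that moved to −0.19 (adjusted p = 0.232) and −0.09 (adjusted p = 0.527). The remaining fall went from −0.34 to −0.59 and was still called (adjusted p = 0.000233). None of the 15 passed at day 14 against control by edgeR, where 3 had an unadjusted p under 0.05 and DESeq2 called 1. Eif2ak4 was the gene of this list that fell at day 14 against day 7 (−0.47, SE 0.114, adjusted p = 0.0186; −0.37 with the offset, adjusted p = 0.0512).

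Further Atf4 targets outside the 34, a list of 20 of which 19 were tested, had a median log2 change of 0.02 at day 7 and −0.20 at day 14 against control. At day 7 the tRNA exporter Xpot (0.53, SE 0.108) and the death receptor Tnfrsf10b (1.02, SE 0.276) rose, and Eif4ebp1, a brake on translation (−0.40, SE 0.103), and the autophagy genes Map1lc3b (−0.33, SE 0.084) and Sqstm1 (−0.31, SE 0.087) fell. With the length and GC offset Eif4ebp1 (−0.24, adjusted p = 0.0751) and Sqstm1 (−0.16, adjusted p = 0.153) were not called, while Xpot was at 0.33 and Map1lc3b at −0.50. None passed at day 14 against control by edgeR, where 10 had an unadjusted p under 0.05 and DESeq2 called 4 lower. Compared with day 7, the glycine carrier Slc6a9 (−0.80, SE 0.148), the bZIP factor Jdp2 (−0.88, SE 0.203) and the proline enzyme Aldh18a1 (−0.35, SE 0.0995) fell at day 14. Slc6a9 shares up to 1986 exonic bases with genes of the other strand, so that its reads may be mixed with theirs.

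Of the other 14 cytosolic tRNA synthetases 4 rose at day 7, beside 15.8% of all tested genes: Iars (log2 0.74, SE 0.134), Dars (0.56, SE 0.114), Lars (0.39, SE 0.118) and Vars (0.29, SE 0.0913). Of these Iars, Dars (0.36) and Vars also passed with the length and GC offset, and Lars did not (0.24, adjusted p = 0.109). Iars (−0.54, SE 0.133) and Lars (−0.41, SE 0.118) fell at day 14 against day 7. Of 17 mitochondrial tRNA synthetases, Iars2 rose (0.40, SE 0.106) and Sars2 fell (−0.54, SE 0.169) at day 7, and 0 passed at day 14 in either comparison by edgeR or DESeq2 (2 and 0 with an unadjusted p under 0.05). Neither Iars2 (0.11, adjusted p = 0.545) nor Sars2 (−0.34, adjusted p = 0.16) was called with the offset.

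Of 14 other one-carbon genes tested, 3 rose and 2 fell at day 7, beside 15.8% and 14.8% of all tested genes. Mthfd1l, which makes formate in mitochondria, rose by log2 1.37 (SE 0.345, adjusted p = 0.00556) and fell at day 14 against day 7 (−1.16, SE 0.338, adjusted p = 0.0462). Mtrr (0.69, SE 0.221) and Aldh1l1, the cytosolic counterpart of Aldh1l2 (0.44, SE 0.144), rose at day 7, and Amt (−0.35, SE 0.113) and Gcsh (−0.35, SE 0.126) of the glycine cleavage system fell. With the length and GC offset Mtrr (0.59, adjusted p = 0.052), Amt (−0.17, adjusted p = 0.272) and Gcsh (−0.13, adjusted p = 0.476) were not called. Of 16 other amino acid transporters tested, Slc36a1 (0.39, SE 0.098) and Slc7a2 (0.77, SE 0.285) rose at day 7 (15.8% of all tested genes), and Slc6a9 fell at day 14 against day 7 (2.87%). Slc7a2 was not called with the offset (0.41, adjusted p = 0.299). Of 8 genes of transsulfuration and glutathione synthesis, 0 passed in any of the 3 comparisons by edgeR (2, 0 and 2 with an unadjusted p under 0.05), and DESeq2 called 1 lower at day 7.

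Genes of the other arms of the response to unfolded protein are set beside the list here. They are Atf6, Xbp1 and Ern1 themselves, ER chaperone genes and genes of ER-associated degradation. Of 18, 2 rose and 6 fell at day 7, beside 15.8% and 14.8% of all tested genes. The lowest p were those of Manf (−0.99, SE 0.112), Creld2 (−0.95, SE 0.106), Calr (−0.68, SE 0.094) and Sdf2l1 (−0.91, SE 0.145), all lower. All 4 were also called with the length and GC offset, Creld2 at −0.60 and Sdf2l1 at −0.51. Neither of the 2 that rose was called with the offset (edgeR adjusted p = 0.055 and 0.283). The 18 genes had a median log2 change of 0.19 at day 14 against day 7, with 4 higher (3.72% of all tested genes) and 1 lower (2.87%). There Creld2 (0.65, SE 0.106), Manf (0.64, SE 0.111), Calr (0.49, SE 0.0938) and Sdf2l1 (0.63, SE 0.145) rose, and Herpud1 (−0.49, SE 0.109), a gene of ER-associated degradation that Atf4 also drives, fell. Whether this list and the 34 genes differ was not tested.

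Markers of other cells and of dividing cells moved over the same comparisons. All 8 cell cycle markers were higher at day 7, summing to 78.1 to 130 CPM at day 7, 12.8 to 29.7 CPM at day 14 and 8.29 to 17.0 CPM in controls. Macrophage markers summed to 116 to 180 CPM at day 7, 278 to 356 CPM at day 14 and 208 to 236 CPM in controls, and 5 of 10 were higher at day 14 than at day 7. Plasma cell markers summed to 1360 to 1590 CPM at day 7, 1350 to 2730 CPM at day 14 and 1870 to 3070 CPM in controls, with 3 of 10 tested lower at day 7 and 0 with the length and GC offset (2 with an unadjusted p under 0.05). Of 12 mucous acinar markers 7 fell and 1 rose at day 7, against 6 and 0 with the offset. The counts for cell cycle and macrophage markers given here were the same with the offset. Without the offset, 15.8% of all tested genes rose and 14.8% fell at day 7, and 3.72% rose at day 14 against day 7. The part of these shifts in the changes of the 34 genes was not tested.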

How the data were processed

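RNA-seq counts per gene of 9 sublingual gland libraries were deposited by the authors as raw whole numbers, not normalised. The submitters' processing notes name mm10 and the tools STAR, featureCounts and DESeq2; for their versions, settings, annotation and use of strand nothing is given in the sources here. The members and lists were chosen with earlier results of these data known. Symbols, lengths and coordinates came from GENCODE M21 (GRCm38), which matched 54495 of 54532 identifiers. Where a symbol had more than 1 identifier (Ddit3), the longest model was used; the shorter had 0 counts in every library.

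Counts were fitted with edgeR 4.0.16 in R 4.3.3: filterByExpr (15348 genes kept), TMM, robust quasi-likelihood F test (two-sided, 6 residual degrees of freedom) over all 9 libraries in 3 groups, Benjamini-Hochberg within each comparison. Scripts were tested on simulated data. No replicate was a copy of another: chi-square over its degrees of freedom was 9.927 to 137.595 within groups. Control library 3 had the highest values, 137.595 with control library 1 and 96.174 with control library 2. Control libraries 1 and 2 had 15.865, and the highest value of the irradiated groups was 31.316. Floors in CPM cover counting error only. The offset was a spline fit, per library, on exonic length and GC content of the deviation of log2 CPM from the gene's mean over the libraries. It can thus also take up differences between groups that go with length. Length was that of all annotated exons of a gene together, and GC content was that of its longest transcript. Alternatives were DESeq2 1.42.0, other scalings, filters and thresholds, a replicate block, the offset, and each library left out. Values per library are given for members called in any comparison and for Atf4, Atf5, Ddit3 and Asns; those of Trib3, Chac1 and Ddit4 were added after their values were seen. Of the other lists up to 4 called genes, or all where 5 or fewer, are named. Of the other lists' results and the promoter matches, 1 each is not reported here.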

Additional observations from a re-analysis of the deposited data

Results flagged for a closer look

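For 7 genes the change at day 14 differed from the change at day 7 by the direct test of that difference (edgeR, day 14 against day 7). On the log2 scale the change at day 14 less the change at day 7 was −1.47 for Sesn2, −0.58 for Shmt2, −0.58 for Pck2, −0.55 for Eprs, −0.51 for Psat1, −0.47 for Slc7a5 and −0.33 for Nars. All 7 were lower at day 14, in every day 14 library against every day 7 library, beside 13.5% of all tested genes. The 7 were picked by the test on these same libraries, so the lack of overlap adds no support. With a library left out, as few as 2 members were called in this comparison. Groups of 3 libraries are too small for the check for a single outlying sample.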

How the results depend on the processing

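In all 288 values of called members under an alternative the sign was that of the value reported. Of the 1836 values of the 34 genes under alternatives, 1673 kept their side of the threshold, 71 lost a call and 92 gained one; the cause was not tested. At day 7 against control 5 members were called: 8 with no filter on low counts and 3 with the length and GC offset, with or without the block. All genes called numbered 4692 there, 2631 at an adjusted p under 0.01 and 3036 with the offset and the block. At day 14 against control 4 members were called: 7 with DESeq2 size factors, 15 with no filter, 14 by DESeq2, 1 with the offset, 1 with the offset and block and 0 at an adjusted p under 0.01 (edgeR, 20 with an unadjusted p under 0.05 beside 21.3% of all tested genes). All genes numbered 270: 1300 with no filter, 973 by DESeq2, 113 with the block, 142 with the offset, 102 with both, 157 with the 6 libraries compared and 11 under 0.01. At day 14 against day 7, 7 members were called: 13 with no filter, 4 with the block, 12 with the 6 libraries compared and 1 under 0.01, and of 1011 genes 264 passed 0.01. With a library left out, members called ranged from 4 to 10 at day 7, 0 to 11 at day 14 and 2 to 10 at day 14 against day 7, and all genes from 3106 to 5314, 13 to 1937 and 330 to 1415. Where an arm kept 2 libraries the spread was pooled over the groups.

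No pairing by replicate number showed in deviations from the group means. Those of same-numbered libraries correlated at −0.112 to 0.037, against −0.09 to 0.158 for other pairs. With 3 libraries a group this cannot exclude a shared batch. With the number as a block 6, 3 and 4 members were called in the 3 comparisons.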

Other observations

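Per kilobase of exonic length, the members spanned a wide range of levels in controls. Nupr1 had 2140 ± 236 CPM per kb (SD, n = 3), Atf4 188 ± 36.5, Asns 145 ± 17.5, Chac1 127 ± 66.6 and Slc7a5 122 ± 15.9. The intervals of 1 SD of Atf4, Asns and Chac1 overlapped, as did those of Asns, Chac1 and Slc7a5. At the other end were Stc2 (1.64 ± 0.697), Slc7a3 (0.759 ± 0.461) and Slc7a11 (0.224 ± 0.165). Chac1 was at 20.2 ± 11.0 CPM per kb at day 14.

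The 8 genes with the composite letters in their promoter window and the 20 with a window without them had median log2 changes of −0.08 and −0.06 for day 7 and of −0.38 and −0.37 for day 14, both set against control. For day 14 set against day 7 they were −0.43 and −0.31. The difference was not tested.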
